A study of Rattus norvegicus with 6 samples.

Results

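The genes described here encode the subunits and assembly factors of the mitochondrial respiratory chain and ATP synthase. They were taken from lists of genes with a peak of trimethylated lysine 27 of histone H3 (H3K27me3). Polycomb complexes write this mark, which is typical of silenced genes. An entry, which is 1 Ensembl gene ID in any of 4 libraries, was a member when its symbol began with Nduf, Uqcr, Cox4 to Cox8, Cox10 to Cox19 or Atp5, or was Cyc1 or Cycs, with case ignored. This gave 80 members of 22427 entries, under 76 symbols. An entry thus needed a peak in at least 1 library, and which libraries listed it did not enter the symbol rule.

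The treated cells were primary cardiomyocytes from the hearts of newborn Sprague Dawley rats, kept for 24 h with α-ketoglutarate (α-KG) at 5 mM. In the tricarboxylic acid (TCA) cycle this metabolite is made from isocitrate, and it is also a co-substrate of the demethylases that remove H3K27me3. Control cells from the same kind of rat received phosphate-buffered saline (PBS) for 24 h. Each group had 2 libraries, called α-KG 1, α-KG 2, control 1 and control 2 after their labels, and 2 input samples did not enter any comparison. The labels do not say whether replicates were separate cultures, so the test measures the spread between these libraries, which may be technical.

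The respiratory chain passes electrons from NADH through complex I, and from succinate through complex II, to coenzyme Q. Complex III then hands them to cytochrome c, and complex IV passes them to oxygen. The protons pumped along the way drive ATP synthase, in which the membrane part Fo turns the catalytic part F1, and heart muscle draws most of its ATP from this chain. Subunits come from both nuclear and mitochondrial DNA. Nuclear respiratory factor 1 (NRF1), GA-binding protein (GABPA) and YY1 are among the factors known to drive the nuclear genes.

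In each library a gene is either listed, meaning that the authors assigned it a peak, or not listed. The lists carry no height, position or depth, so a gene outside a list may be free of the mark or below detection, at a depth that is unknown. A mark on a share of the cells and a weaker mark on all of them cannot be told apart. Listed genes numbered 18120 in α-KG 1, 19181 in α-KG 2, 17245 in control 1 and 18442 in control 2. Of the 22427 entries, 5089 (22.7%) had no symbol. Matched by symbol or older symbol, 16167 of 23154 RefSeq protein-coding genes (69.8%) had an entry. For the 126 RefSeq genes of the symbol rule the share was 61.9%, or 72.1% with copies left out. A listing was thus common among genes and does not by itself show that a gene was silenced. Marker genes gave no check of cell identity, since a peak does not tell which cells carried it. Of the entries for cardiomyocyte markers 3 of 7 were listed in all 4 libraries, against 4 of 5 for fibroblast, 4 of 5 for endothelial, 1 of 3 for smooth muscle and pericyte, and 2 of 3 for immune markers.

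Promoter sequences show the genes behind the main contrasts and the motifs searched in them. RefSeq windows of assembly GRCr8, from 250 bases before to 50 after the gene's start, are printed 5′ to 3′ on the gene's strand. Ndufa3 and Ndufa4 were listed in both controls only. Ndufb6 was the member with a symbol of its own that was listed in both α-KG libraries only. Atp5i (Atp5me in RefSeq) held all 3 motifs, COX6A2 is the heart and skeletal muscle isoform of a complex IV subunit, and Cox7a2l2 had the lowest G + C content. Capitals mark an exact match, on either strand, to the GABPA motif CCGGAAG, the YY1 motif GCCATNTT or the NRF1 motif, which is the longest run of capitals in Atp5i. No matches overlapped in these 6 windows.
Ndufa3 (chr1:74515509-74515808, minus strand): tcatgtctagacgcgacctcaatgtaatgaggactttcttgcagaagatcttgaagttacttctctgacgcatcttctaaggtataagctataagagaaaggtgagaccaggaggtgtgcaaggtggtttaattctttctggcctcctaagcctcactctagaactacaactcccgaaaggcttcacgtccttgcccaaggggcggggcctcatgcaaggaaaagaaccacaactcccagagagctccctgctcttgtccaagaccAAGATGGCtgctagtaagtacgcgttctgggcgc
Ndufa4 (chr4:40975510-40975809, minus strand): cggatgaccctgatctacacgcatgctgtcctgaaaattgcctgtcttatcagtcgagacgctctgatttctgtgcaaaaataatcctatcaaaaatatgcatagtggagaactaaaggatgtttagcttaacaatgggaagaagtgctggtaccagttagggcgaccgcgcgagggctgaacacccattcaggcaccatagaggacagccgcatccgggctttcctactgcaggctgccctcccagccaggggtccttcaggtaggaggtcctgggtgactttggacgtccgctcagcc
Ndufb6 (chr5:60206103-60206402, minus strand): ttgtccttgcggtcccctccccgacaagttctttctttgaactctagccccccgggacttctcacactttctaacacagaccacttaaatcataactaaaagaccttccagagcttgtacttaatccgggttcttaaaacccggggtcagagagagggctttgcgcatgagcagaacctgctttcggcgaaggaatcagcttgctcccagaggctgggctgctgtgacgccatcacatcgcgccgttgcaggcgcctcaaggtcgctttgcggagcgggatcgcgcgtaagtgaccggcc
Atp5i (chr14:1464610-1464909, plus strand): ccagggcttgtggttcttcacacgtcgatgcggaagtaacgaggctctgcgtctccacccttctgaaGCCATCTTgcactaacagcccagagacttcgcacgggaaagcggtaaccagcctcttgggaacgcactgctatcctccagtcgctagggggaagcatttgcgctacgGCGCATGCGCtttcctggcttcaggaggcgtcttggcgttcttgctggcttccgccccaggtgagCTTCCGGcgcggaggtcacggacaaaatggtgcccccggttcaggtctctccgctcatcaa
COX6A2 (chr1:192219667-192219966, minus strand): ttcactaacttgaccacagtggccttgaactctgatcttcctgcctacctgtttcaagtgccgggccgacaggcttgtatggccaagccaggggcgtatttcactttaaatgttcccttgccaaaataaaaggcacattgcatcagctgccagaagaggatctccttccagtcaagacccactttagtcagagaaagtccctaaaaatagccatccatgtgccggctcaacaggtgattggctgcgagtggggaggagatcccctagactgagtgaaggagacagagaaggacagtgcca
Cox7a2l2 (chr14:55513973-55514272, plus strand): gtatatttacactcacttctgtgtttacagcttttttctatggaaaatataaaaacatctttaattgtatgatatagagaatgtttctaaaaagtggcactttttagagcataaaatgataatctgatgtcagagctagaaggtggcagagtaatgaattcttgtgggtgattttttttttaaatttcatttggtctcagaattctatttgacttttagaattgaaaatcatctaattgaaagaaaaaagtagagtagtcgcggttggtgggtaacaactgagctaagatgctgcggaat

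Respiratory chain and ATP synthase genes were listed less evenly across the libraries than the whole set of entries. All 4 libraries listed 33 of the 80 members (41.2%), where the share over all 22427 entries was 62.8%. A further 15 members were in 3 libraries, 16 in 2 and 16 in 1. Listing in a single library thus held for 20% of members and for 13% of all entries. Among other genes for mitochondrial or ribosomal proteins, 24 of 59 mitochondrial ribosomal entries (40.7%), 74 of 133 cytosolic ribosomal entries (55.6%) and 10 of 16 TCA cycle entries (62.5%) were in all 4. These shares are descriptions, and no difference between the groups of genes was tested. Without control 1 the count in all remaining libraries was 44 of 78 members (56.4%, against 68.9% of all entries), and it was 33 to 35 without any other single library.

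**Figure D1:**
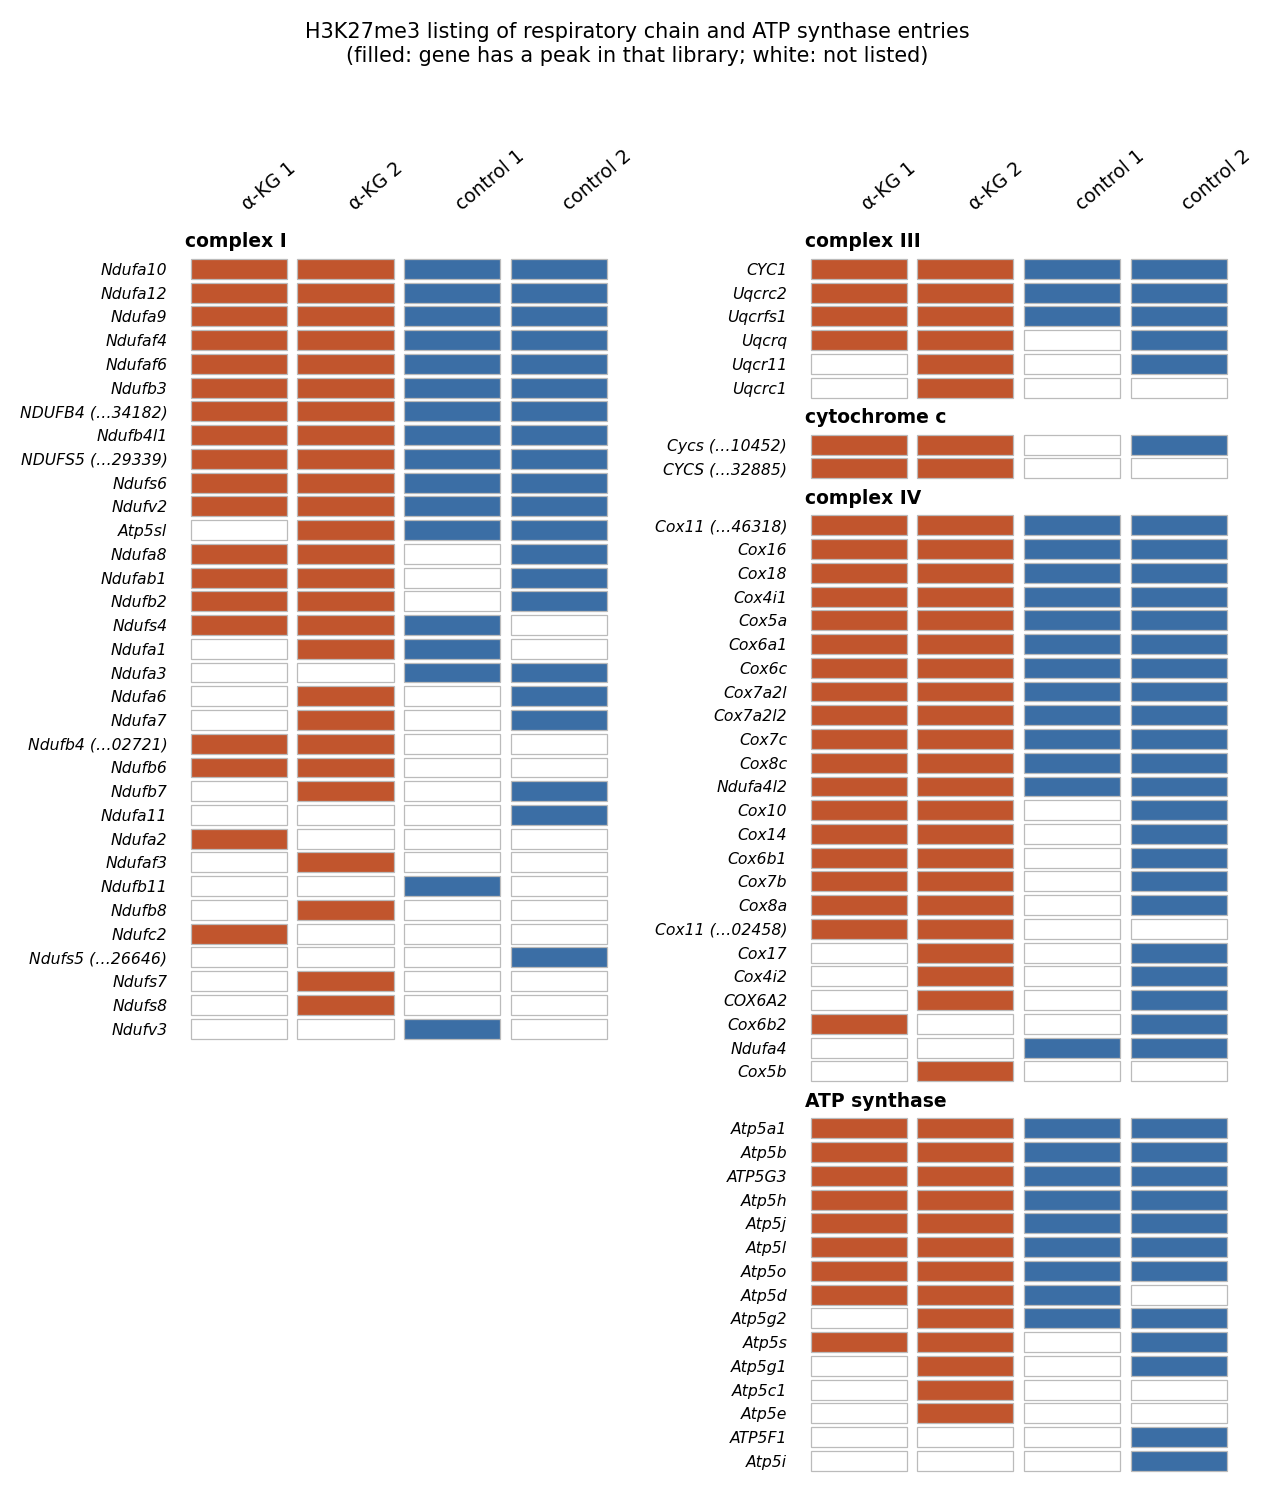
Listing of each of the 80 members (rows, grouped by complex) in α-KG 1, α-KG 2, control 1 and control 2 (columns). A filled box means that the library lists the gene with a peak and a white box that it does not; symbols with more than 1 ID carry the last digits of the ID. Of the rows, 33 are filled in all 4 columns, and the control 1 column has the most white boxes, 38.

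The number of listed members differed more between replicates than between treatments. The α-KG libraries listed 53 members in α-KG 1 and 69 in α-KG 2, and the controls listed 42 in control 1 and 61 in control 2. Within each group the library numbered 2 was higher, by 16 members for α-KG and by 19 for control, and the groups overlapped. The means were 61 ± 11.3 members with α-KG and 51.5 ± 13.4 members in control (SD, n = 2 each). The difference of 9.5 members had p = 0.667 by an exact permutation test (two-sided), for which 0.333 is the smallest possible value with 2 libraries a group. The difference changed with each library left out. It rose to 17.5 without α-KG 1 and 19 without control 2, and fell to 1.5 without α-KG 2 and 0 without control 1.

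As a share of the 80 members, α-KG 1 listed 66.2%, α-KG 2 86.2%, control 1 52.5% and control 2 76.2%. Over all entries the shares were 80.8% in α-KG 1, 85.5% in α-KG 2, 76.9% in control 1 and 82.2% in control 2. The members' share in α-KG 2 was therefore near that of all entries, while in α-KG 1 and both controls it was lower. Members made up 0.292 and 0.36 of every 100 listed genes in α-KG 1 and α-KG 2, against 0.244 and 0.331 in control 1 and control 2.

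**Figure D2:**
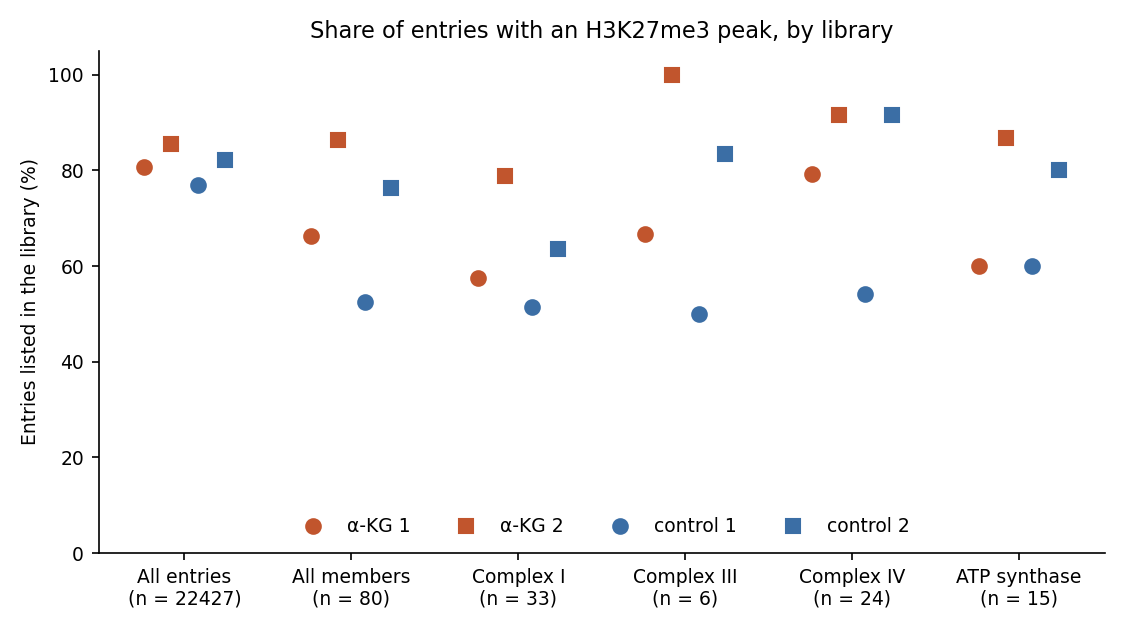
Share of entries listed in each library (vertical axis, percent), for all entries, all members and the members of complexes I, III and IV and of ATP synthase; each point is 1 library. For all members the points run from 52.5% (control 1) to 86.2% (α-KG 2), and for all entries from 76.9% to 85.5% in the same 2 libraries.

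The combinations of libraries show where members were missing. Control 1 alone lacked 11 members (13.8%), where that combination held 4.91% of all entries. These were the complex I genes Ndufa8, Ndufab1 and Ndufb2, the complex III gene Uqcrq, 1 entry for cytochrome c, Cox10, Cox14, Cox6b1, Cox7b, Cox8a and Atp5s. The 2 libraries numbered 2, and no other, listed 8 members (10%, against 2.4% of all entries), and α-KG 2 alone listed another 8 (10%, against 6.96%). The reverse combination, missing from α-KG 2 alone, held 0 members and 3.8% of all entries. Of the 47 members outside the set of 33, α-KG 1 listed 20, α-KG 2 36, control 1 9 and control 2 28.

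**Figure D3:**
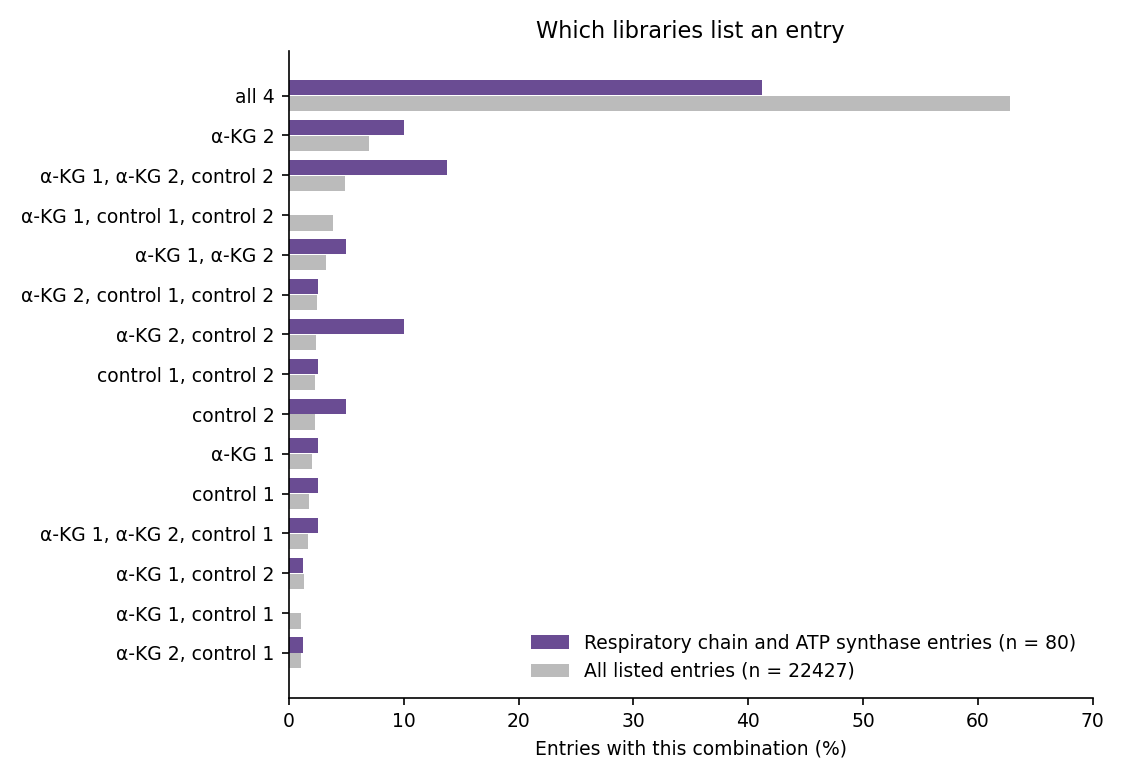
Share of members (purple, n = 80) and of all listed entries (grey, n = 22427) with each combination of libraries, in percent. The bars for all 4 libraries are at 41.2% for members and 62.8% for all entries, and members exceed all entries for the combination without control 1 (13.8% against 4.91%).

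Complex I, which oxidises NADH, had 33 entries, of which 11 were in all 4 libraries. α-KG 1 listed 19 of them, α-KG 2 26, control 1 17 and control 2 21. Its core subunits carry the flavin and the iron-sulphur clusters of the electron path. Ndufv2, which binds an iron-sulphur cluster beside the flavin, was in all 4 libraries, and Ndufs7 and Ndufs8, which bind the last clusters before the coenzyme Q site, were in α-KG 2 alone. The core genes Ndufs1, Ndufs3 and Ndufv1 had no entry under their symbols in the lists used here. Over the whole table of subunits and assembly factors searched, 26 of 102 symbols had no entry, among them the accessory genes Ndufa5, Ndufa13, Ndufb1, Ndufb5, Ndufb9, Ndufb10 and Ndufc1. With 22.7% of entries lacking a symbol, this does not show that those genes had no peak.

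Accessory subunits of complex I surround the core and hold it together, and 8 of their 26 entries were in all 4 libraries. These were Ndufa9, Ndufa10, Ndufa12, Ndufb3, Ndufs6, the copy Ndufb4l1 and 1 entry each for Ndufb4 and Ndufs5. Listings in 3 libraries covered Ndufa8, Ndufab1, the mitochondrial acyl carrier protein, and Ndufb2, all missing from control 1, and Ndufs4, missing from control 2. Ndufa6, Ndufa7 and Ndufb7 were in both libraries numbered 2, and Ndufa1, which is on the X chromosome, was in α-KG 2 and control 1. Among listings in a single library were Ndufa2 and Ndufc2 (α-KG 1), Ndufb8 (α-KG 2), Ndufb11 and Ndufv3 (control 1), and Ndufa11 and the second entry for Ndufs5 (control 2). Of the assembly factors, Ndufaf4 and Ndufaf6 were in all 4 libraries, Ndufaf3 in α-KG 2 alone, and Atp5sl, an older name of Dmac2, in all but α-KG 1.

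Complex III, which carries electrons from coenzyme Q to cytochrome c, had 6 entries. Its redox subunits encoded in the nucleus, cytochrome c1 (CYC1) and the Rieske iron-sulphur protein (Uqcrfs1), were in all 4 libraries, as was the structural subunit Uqcrc2. Its partner Uqcrc1 was in α-KG 2 alone, Uqcrq in all but control 1, and Uqcr11 in both libraries numbered 2. Cytochrome c, the mobile carrier between complexes III and IV, had 2 entries under Cycs. Both were in α-KG 1 and α-KG 2, and of the controls only control 2 listed 1 of them. The testis form Cyct and the haem lyase gene Hccs, which lie outside the symbol rule, were in all 4.

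Complex IV, cytochrome c oxidase, had 24 entries, with 12 in all 4 libraries. The counts were 19 in α-KG 1 and 22 in α-KG 2, against 13 in control 1 and 22 in control 2. The widely used forms Cox4i1, Cox5a, Cox6a1, Cox6c and Cox7c were in all 4. So was Cox7a2l, known for its part in joining complexes III and IV. Cox7a2l2, taken as a copy by its name, was also in all 4, and the gene it copies was not determined here. Cox6b1, Cox7b and Cox8a were in all but control 1, and Cox5b was in α-KG 2 alone. Ndufa4, first assigned to complex I and now known as a complex IV subunit, was in both controls only.

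Several complex IV subunits have isoforms restricted to certain tissues, and their listings varied. Of 5 such entries 2 were in all 4 libraries: Cox8c, the testis form of subunit 8, and Ndufa4l2, a relative of Ndufa4 that hypoxia induces. COX6A2, the heart and muscle form of subunit 6a, was in α-KG 2 and control 2, while its widely used counterpart Cox6a1 was in all 4. The lung form Cox4i2 was likewise in α-KG 2 and control 2, against all 4 for Cox4i1. Cox6b2, the testis form of subunit 6b, was in α-KG 1 and control 2. The muscle forms Cox7a1 and Cox8b had no entry under those symbols, nor had Cox7a2 and Cox7b2.

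Some assembly factors of complex IV serve its haem and copper. Of the 7 entries for its assembly factors, 3 were in all 4 libraries. These were Cox16, the membrane insertase Cox18, and 1 of 2 entries for the copper inserter Cox11. The other Cox11 entry was in α-KG 1 and α-KG 2 only. Cox10, which makes the haem A precursor, and Cox14 were in all but control 1, and the copper chaperone Cox17 was in both libraries numbered 2.

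ATP synthase had 15 entries, of which α-KG 1 listed 9, α-KG 2 13, control 1 9 and control 2 12. In the catalytic part F1, the α and β subunit genes Atp5a1 and Atp5b, which form the nucleotide sites, were in all 4 libraries. The central stalk genes differed from them: Atp5d (δ) was missing from control 2, and Atp5c1 (γ) and Atp5e (ε) were in α-KG 2 alone. The domain names given for the Atp5c1 entry also include a histone fold and a bromodomain factor domain, which the γ subunit does not have. Its RefSeq neighbour Taf3, a transcription factor gene, was listed separately in all 4 libraries.

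In the membrane part and outer stalk, Atp5h, Atp5j, Atp5l and Atp5o were in all 4 libraries. ATP5F1 and Atp5i were in control 2 alone. Atp5s, an older name of Dmac2l that was grouped here by that older name, was in all but control 1. Subunit c, which forms the turning ring, is encoded by 3 genes that give the same mature protein. Of these ATP5G3 was in all 4 libraries, Atp5g2 in all but α-KG 1, and Atp5g1 in α-KG 2 and control 2.

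Loss of the mark with α-KG, meaning a listing in neither α-KG library and in both controls, was found for 2 members, Ndufa3 and Ndufa4. They were 2 of the 37 members in both controls (5.41%), where 3.22% of all entries in both controls were lost. Of all 80 members they were 2.5%, against 2.3% of all entries. Ndufa3 is a small accessory subunit of complex I. Where the pattern spans only 3 libraries, the count was 2 of 37 without α-KG 1 (5.41%, against 8.55% of all entries), 4 of 37 without α-KG 2 (10.8%, against 6.72%), 6 of 61 without control 1 (9.84%, against 5.56%) and 4 of 42 without control 2 (9.52%, against 5.24%). The members' share was below the background in the first of these and above it in the other 3. A share of 2 in 37 lies near the background and is no result about these genes as a group.

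Gain, the reverse pattern, was found for 4 members: Ndufb6, a complex I subunit of the membrane arm, and 1 of the 2 entries each for Ndufb4, Cycs and Cox11. They were 4 of the 50 members in both α-KG libraries (8%), where the gained share of all such entries was 4.48%. Of all 80 members they were 5%, against 3.25% of all entries. For the last 3 the other entry of the same symbol was in all 4 libraries (Ndufb4 and Cox11) or in all but control 1 (Cycs). Counted by symbol, 1 of 47 was gained (2.13%, against 4.47% of all symbols). Without the symbols that have more than 1 ID it was 1 of 43 (2.33%, against 4.48% of all entries). Near-identical copies can share reads, so the listing of these entries is uncertain. A share of 4 in 50 that depends on them is no result about these genes as a group. Leaving out 1 library loosened the pattern for all entries as well, and the counts that follow still include symbols with more than 1 ID. The gained count was 12 of 69 without α-KG 1 (17.4%, against 11.9% of all entries), 6 of 53 without α-KG 2 (11.3%, against 6.53%), 6 of 50 without control 1 (12%, against 6.81%) and 15 of 50 without control 2 (30%, against 11.2%).

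Domains of respiratory chain proteins were also found among entries without a symbol, which may be copies or the genes themselves. The domain column named a domain of a subunit or of cytochrome c for 16 such entries, of which α-KG 1 listed 10, α-KG 2 13, control 1 11 and control 2 10. All 4 libraries listed 5 of them (31.2%, against 62.8% of all entries). None were lost or gained, where 2.3% of all entries were lost and 3.25% gained. The named domains include those of the complex I subunits Ndufb4 and Ndufs5, of cytochrome c, and of the ATP synthase ε subunit, which was in α-KG 1, α-KG 2 and control 1 in this unnamed form. An entry with the domain of complex I subunit 10 was also in those 3 libraries, while Ndufb10 had no entry under its symbol. Unnamed entries with the cytochrome c domain were in all 4 libraries or in control 1 alone. None of the 16 entries was counted as a member.

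The rest of the pathway was read from lists of other genes. Complex II, which oxidises succinate and also serves the TCA cycle, had Sdhb in α-KG 2 alone and Sdhc in control 1 alone, and Sdha and Sdhd had no entry under those symbols. Its assembly factors Sdhaf1 and Sdhaf2 were in α-KG 2 alone and in all 4 libraries. Of further assembly factors, 3 of 6 entries for complex I (Acad9, Nubpl and Tmem70), 1 of 2 for complex III (Ttc19) and 5 of 10 for complex IV (Pet117, Cmc1, Cmc2, Lrpprc and Higd1a) were in all 4. For ATP synthase the assembly factor Atpaf1 was in all 4, Atpaf2 in α-KG 2 alone, and the inhibitor Atpif1 in α-KG 2 and control 2. Of 3 entries for the small subunit gene Mp68, 1 was lost, and 0 of the other entries on these lists were lost or gained. Over all entries 2.3% were lost and 3.25% gained, so these few entries are no result about the pathway. None of the 13 mitochondrially encoded subunit genes had an entry under the symbols searched.

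Regulators of these genes were listed almost throughout. All 4 libraries listed 11 of 12: Nrf1, Gabpa, Gabpb1 and Yy1, the receptor gene Esrra, the coactivators Ppargc1b and Pprc1, and the mitochondrial transcription genes Tfam, Tfb1m, Tfb2m and Polrmt. Ppargc1a, a coactivator that raises mitochondrial gene expression, was in all but control 1. The share of 11 in 12 (91.7%) stands beside 62.8% of all entries and 41.2% of the subunits and assembly factors, with no test.

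Promoter windows were available for 63 of the 72 members whose symbol has a single ID. Their CpG content, the observed over the expected number of CpG, had a median of 0.824 (quartiles 0.661 and 0.915) for the 38 members in 1 to 3 libraries and 0.806 (0.681 and 0.988) for the 25 in all 4. Over all windows of protein-coding genes the median was 0.521. The G + C content had medians of 56.5% and 56% in the same order, against 55% for protein-coding windows. Member promoters were thus richer in CpG than the typical protein-coding window, and the ranges of members in 1 to 3 libraries and in all 4 overlapped widely. CpG content ran down to 0.26 in COX6A2, 0.322 in the copy Ndufb4l1, 0.329 in Cox6b1 and 0.33 in Ndufa4l2, and G + C content down to 31.3% in Cox7a2l2.

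**Figure D4:**
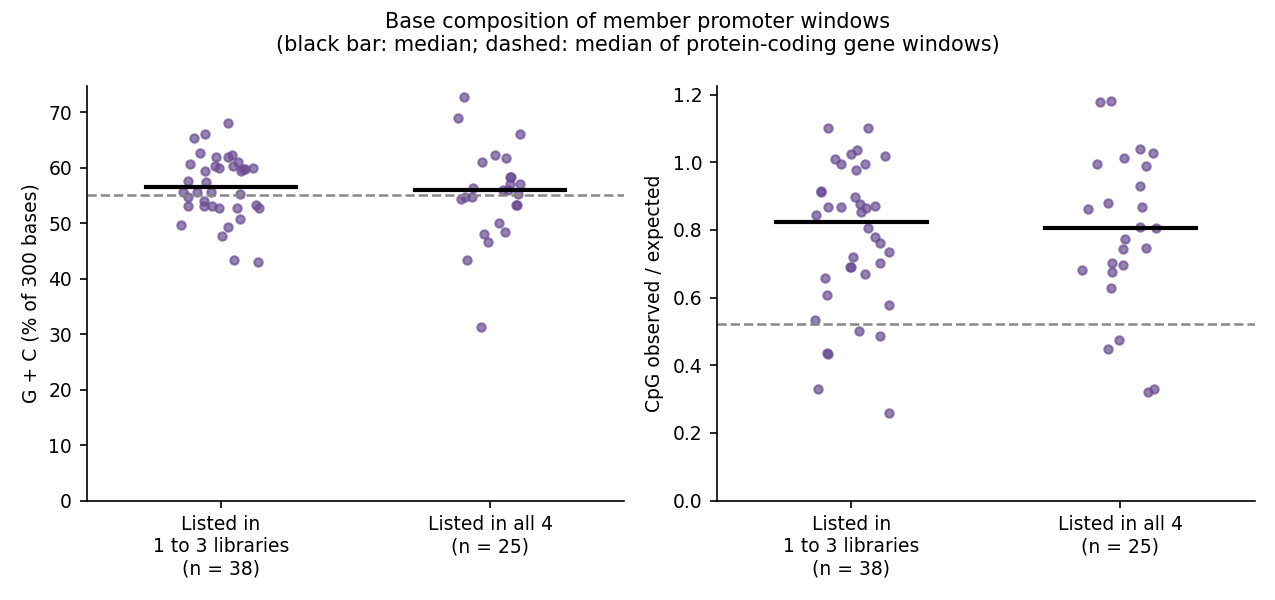
G + C content (left, percent of 300 bases) and CpG observed over expected (right) of the promoter windows of members in 1 to 3 libraries (n = 38) and in all 4 (n = 25). Points are genes, black bars medians (0.824 and 0.806 for CpG), and the dashed line is the median of protein-coding windows (0.521 for CpG).

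Exact motif matches were more frequent in member windows than in protein-coding windows at large, whichever libraries listed the gene. The YY1 motif stood in 14 of 38 windows of members in 1 to 3 libraries (36.8%) and in 7 of 25 of members in all 4 (28%), against 7.67% of 21851 protein-coding windows and 6.96% of all 33469 windows. For the GABPA motif the counts were 9 of 38 (23.7%) and 6 of 25 (24%), against 10.7% of protein-coding and 8.74% of all windows. The NRF1 motif was in 3 of 38 (7.89%) and 3 of 25 (12%), against 1.08% of protein-coding and 0.852% of all windows. Ndufa11 held 2 NRF1 matches, and Cox4i1, Uqcrc2, Cox8a and Ndufa1 held 2 GABPA matches each. Ndufa4, Ndufb6, COX6A2 and Cox7a2l2, printed above, held none of the motifs, and Ndufa3 held a YY1 match. A match is a description of the letters and not a bound site, and no test was made.

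**Figure D5:**
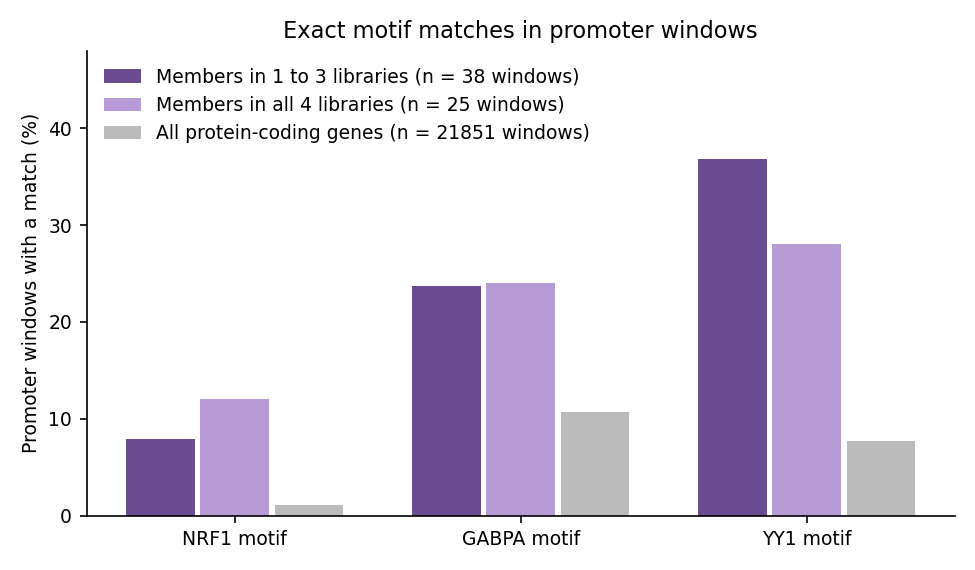
Share of promoter windows (percent) with at least 1 exact match to the NRF1, GABPA or YY1 motif, for members in 1 to 3 libraries, members in all 4, and all protein-coding genes. The YY1 bars are at 36.8%, 28% and 7.67%.

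Adjacent genes shared the listing of some members. Of the 42 members in 1 to 3 libraries that could be placed in the RefSeq gene order, 8 (19%) had a neighbour listed in exactly the same libraries, against 9.94% of 5753 such genes. A neighbour in all 4 libraries, a listing unlike the member's own, was found for 35 of the 42 (83.3%), against 63.8% of such genes. Ndufa3, listed in both controls only, was next to Oscar, a receptor gene of osteoclasts with the same listing. Other such pairs were Ndufs8 with Tcirg1, Ndufs7 with Gamt, Uqcrc1 with Col7a1, Cox5b with Fam178b and Ndufaf3 with Dalrd3, all in α-KG 2 alone. That listing was the most common within 1 to 3 libraries (6.96% of all entries), and the background share was not matched for it. Ndufa1 and Rnf113a1 shared α-KG 2 and control 1, and Atp5g2 and Atf7 shared all but α-KG 1. Of the 30 members in all 4 libraries, 24 (80%) had a neighbour in all 4, against 78.4% of 10199 such genes. Atp5j is the neighbour of Gabpa, and both were in all 4. The rule that assigned peaks to genes is not known here, so a peak shared by neighbours cannot be told apart from separate peaks.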

How the data were processed

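H3K27me3 was profiled in 2 α-KG and 2 control libraries of neonatal rat cardiomyocytes. The deposited files hold no numeric values: the authors give each listed gene's Ensembl ID, symbol and domain names. CASAVA, BWA, MACS2 and build rn6 appear without roles or versions, per the submitters' processing notes. The sources used here do not give the use of inputs, the peak threshold or how peaks were assigned to genes. Depth is unknown, so no interval was computed.

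Lists were read with Python 3.11.15, pandas 2.3.3 and numpy 2.4.6, and drawn with matplotlib 3.10.9. Lost means both controls and neither α-KG library, and gained the reverse. The number of members per library was compared by an exact permutation test, and other counts are given beside the share over all entries. On simulated lists only the lost and gained counts were checked, with planted patterns that match their definitions. That checks the code alone, and the other steps had no such check. All members are named, and genes outside the symbol rule come from lists of the pathway. Members, lists and motifs were chosen with earlier results of these data known. RefSeq GRCr8, matched by symbol or older symbol, served for promoter windows, names and gene order, and that assembly differs from rn6. Alternatives left out each library in turn, blocked by replicate number, or changed the counting. Counting was by symbol, without the assembly factors and copies found by name, or with other denominators. The search by name kept the assembly factor Atp5sl.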

Additional observations from a re-analysis of the deposited data

How the results depend on the processing

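Without 1 library, lost members numbered 2 to 6 (5.41% to 10.8%, against 5.24% to 8.55% of all entries). Gained members numbered 6 to 15 (11.3% to 30%, against 6.53% to 11.9%). Members in all remaining libraries numbered 33 to 44 (44.9% to 56.4%, against 66% to 71.6%). The difference in listed members ran from 0 to 19. Gained members fell to 1 of 47 when symbols were counted once (2.13%, against 4.47% of all symbols). They fell to 1 of 43 when symbols with more than 1 ID were left out (2.33%, against 4.48% of all entries). That last setting was chosen after the data were seen, and its construction leaves those copies out. The replicate block gave the same difference of 9.5 members (exact sign-flip p = 0.5, the smallest that 2 pairs can give) and cannot change the 2 lost and 4 gained members, which no model enters. With only 2 shared numbers, whether the numbers pair cultures cannot be judged from the data. Leaving out the factors named Ndufaf or Cox10 to Cox19 and the copies Ndufb4l1 and Cox7a2l2 gave a difference of 7. In that setting 2 of 30 members were lost (6.67%, against 3.22% of all entries) and 3 of 40 gained (7.5%, against 4.48%). All 4 libraries then listed 26 of 68 (38.2%, against 62.8%). With RefSeq genes as denominator, 34 of 126 genes of the rule (27%) were in all 4, against 44.8% of protein-coding genes. Depth is unknown, so a gene free of the mark cannot be told apart from one below detection.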
